A study of Mus musculus with 24 samples.

Results

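The annexins are a family of cytosolic proteins that bind acidic phospholipids on membranes when calcium rises. They share a conserved core of annexin repeats and differ mainly in their N-terminal tails, through which several of them dock S100 proteins or other calcium sensors. They are known for membrane repair, exocytosis and endosome traffic, for the restraint of inflammation by Anxa1, and for the assembly of plasminogen and its activator on the cell surface by Anxa2. The members described here were the 9 genes Anxa1, Anxa2, Anxa3, Anxa4, Anxa5, Anxa6, Anxa7, Anxa11 and Anxa13, taken by symbol from a table of 56205 genes. All 9 were among the 17913 genes with enough counts to be tested.

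RNA-Seq of whole liver covered C57BL/6J mice that were fed a high-fat diet rich in palm oil, fructose and cholesterol (FFD_mouse, 12 libraries) or a control diet (FFD_Ctrl_mouse, 12 libraries). Both diets ran for 20 weeks in mice that were 8 to 10 weeks old at the start. The series covers 6 male and 6 female mice per diet, but the labels do not give the sex of a library. Diet is the one treatment that the labels give, and they name no engineered allele. Whole liver is a mixture of cells, so fewer cells of a type and less RNA per cell cannot be told apart in any value below.

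Total counts were 16490817 to 21213070 per high-fat library and 14468418 to 22112552 per control library. Levels are given as CPM, counts relative to the library total after scaling with edgeR's TMM factors. Replicates 1 to 6 of both diets had 2664 to 6285 counts of Xist and replicates 7 to 12 had 0 to 3, and these are called the Xist-high and Xist-low sets. The sets hold 6 libraries of each diet and are not conditions of the labels. The hepatocyte markers were high in every library, with a summed level of 39249 to 94364 CPM on the high-fat diet and 84060 to 138290 CPM on the control diet.

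On the high-fat diet 6 of the 9 annexins were higher than on the control diet and 0 were lower. Anxa2 rose most, 7.83-fold, followed by Anxa13 (4.20-fold), Anxa5 (3.73-fold), Anxa3 (3.12-fold), Anxa1 (2.69-fold) and Anxa4 (1.47-fold). Without high-fat replicate 9 Anxa13 came after Anxa5, at log2 fold changes of 1.56 and 1.84. Anxa6, Anxa7 and Anxa11 were not called. A gene was called when edgeR's quasi-likelihood test gave it an adjusted p, corrected over all tested genes, of 0.01 or less and its log2 fold change exceeded 0.5 in size. Among all 17913 genes tested, 13.2% were called higher and 4.99% lower. The median log2 fold change of the 9 members was 1.43, and that of all tested genes was -0.032. Scaling by library totals alone moved the median of all genes to 0.26, and under it the 6 calls stood, Anxa7 was called higher as well (0.67) and Anxa11 turned from -0.085 to 0.20.

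**Figure D1:**
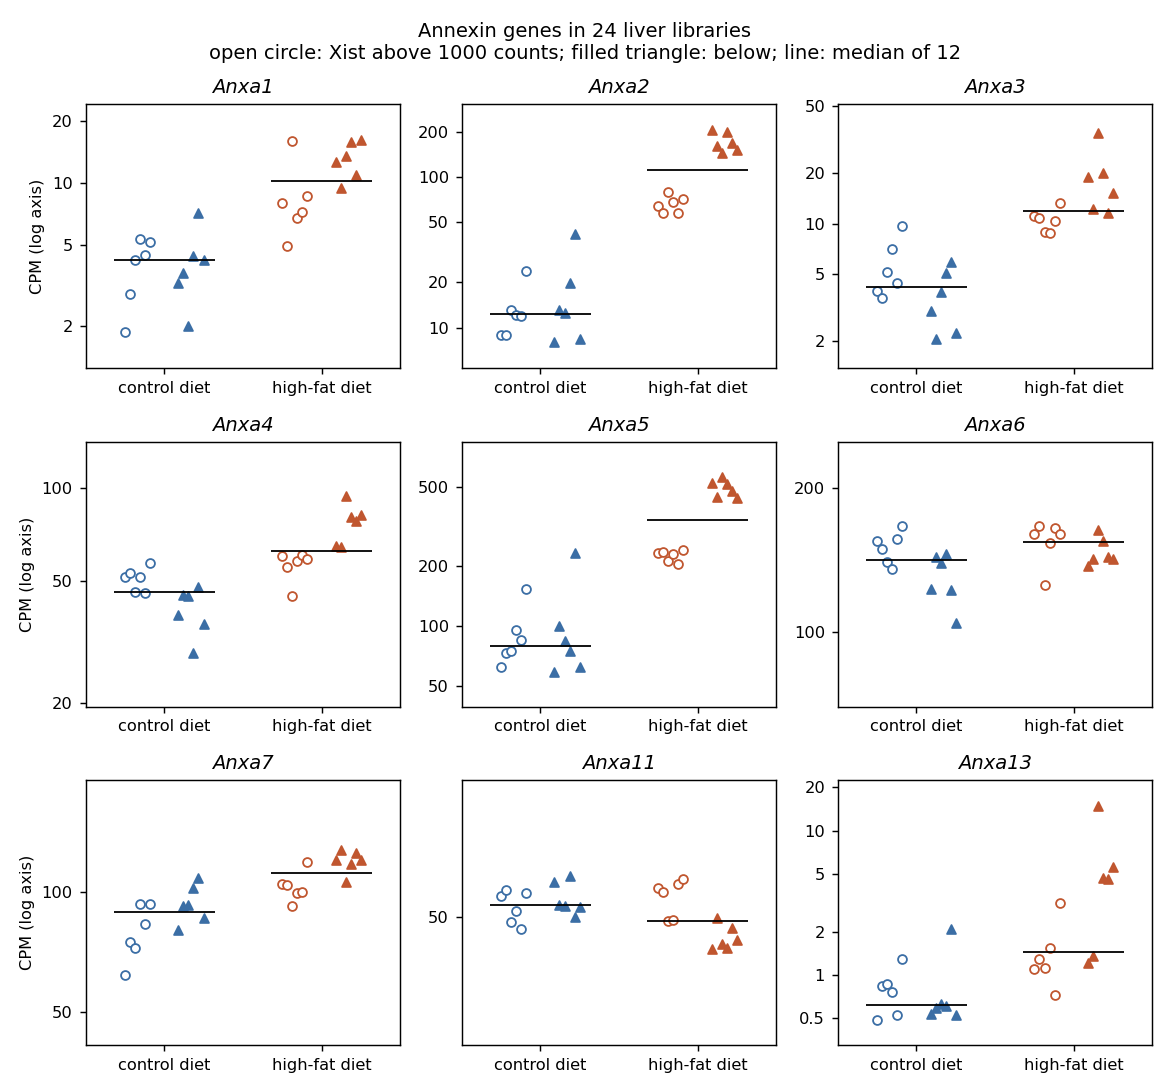
CPM of each annexin gene (log axis) in every library by diet, where open circles are Xist-high libraries, filled triangles Xist-low libraries and lines the medians of 12. The diets separate completely for Anxa2, with 58.0 to 205 CPM against 8.05 to 41.6, and lie over each other for Anxa6. For Anxa11 they overlap, with some high-fat libraries below every control.

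Anxa2 (ENSMUSG00000032231, mm10 chromosome 9, 69453620 to 69491795, plus strand) encodes the annexin that pairs with S100a10 into a membrane-bound receptor for plasminogen and tissue plasminogen activator. It lay between 58.0 and 205 CPM on the high-fat diet (median 111) and between 8.05 and 41.6 CPM on the control diet (median 12.3). All 12 high-fat libraries were above all 12 control libraries, a separation that 1.48% of tested genes showed in this direction and 0.402% in the other, and that no other member showed. Its log2 fold change was 2.97 (standard error 0.30, n = 12 per diet, edgeR adjusted p = 1.89e-07). The highest control value was that of replicate 11, and without this library the log2 fold change was 3.22.

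Anxa5 (ENSMUSG00000027712, chromosome 3, 36448923 to 36475894, minus strand) encodes the phosphatidylserine-binding annexin that is widely used as a probe for dying cells. Its level was 205 to 561 CPM on the high-fat diet (median 339) and 59.0 to 233 CPM on the control diet (median 79.6). The groups overlapped only through control replicate 11, since 11 of the 12 control libraries lay below the lowest high-fat library. The log2 fold change was 1.90 (standard error 0.24, edgeR adjusted p = 2.20e-06), and it was 2.10 without control replicate 11. That same control library had the highest summed level of the myofibroblast markers among controls, 235 CPM against a control median of 61.5, and the part of these cells in its annexin values was not tested.

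The stretches before the start sites of Anxa2 and Anxa5, the called members with the largest counts, are shown beside that of Anxa11, a member that was not called. They are the part of the 250 bases before the RefSeq start (GRCm38.p6) that lies outside the gene as GENCODE M21 draws it, read 5′ to 3′ on the gene's strand. For Anxa2 this is chr9:69453433-69453619, for Anxa5 chr3:36475895-36476137 and for Anxa11 chr14:25841905-25842154. Capitals mark matches to the motifs named next.
Anxa2: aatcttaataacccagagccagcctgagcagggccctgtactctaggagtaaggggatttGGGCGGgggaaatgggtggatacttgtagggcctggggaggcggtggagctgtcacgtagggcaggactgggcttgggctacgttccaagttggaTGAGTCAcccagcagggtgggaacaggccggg
Anxa5: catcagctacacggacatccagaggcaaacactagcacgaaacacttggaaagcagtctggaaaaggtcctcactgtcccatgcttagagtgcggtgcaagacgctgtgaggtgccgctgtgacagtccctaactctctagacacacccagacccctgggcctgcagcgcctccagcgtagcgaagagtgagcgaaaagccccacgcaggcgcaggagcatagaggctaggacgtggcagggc
Anxa11: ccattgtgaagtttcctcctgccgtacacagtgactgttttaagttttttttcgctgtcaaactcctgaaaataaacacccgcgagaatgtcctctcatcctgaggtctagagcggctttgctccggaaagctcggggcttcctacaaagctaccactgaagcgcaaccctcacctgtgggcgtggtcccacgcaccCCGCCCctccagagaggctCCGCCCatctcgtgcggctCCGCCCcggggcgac
The motifs searched on both strands were the TATA box (TATAAA), the GC box (GGGCGG), the AP-1 site (TGAGTCA), TEAD site (GGAATG), the E-box (CACGTG) and the CCAAT box, whose name gives its letters. No matches overlapped in these windows. In its whole 250 bases Anxa2 held 1 AP-1 match 95 bases before the start, 1 TATA box at 17 bases and GC boxes at 190, 48 and 24 bases. Of these the TATA box and the GC boxes at 48 and 24 bases lay inside the gene as GENCODE M21 draws it. AP-1 matches stood in 4.46% and TATA boxes in 12.4% of 32851 mouse windows of the same length, GC boxes in 32.7%, CCAAT boxes in 33.8%, TEAD matches in 12.6% and E-boxes in 6.02%. Anxa5 held none of the 6 motifs and 13 CpG dinucleotides, and Anxa11 held 3 GC boxes and 17 CpG dinucleotides, where the median window held 6. A window was found for 6 of the 9 members. In that of Anxa1, a TATA box lay 32 bases and a TEAD match 236 bases before the RefSeq start, but GENCODE M21 draws this whole window inside the gene. Such matches describe letters, not sites in use.

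Anxa1 (ENSMUSG00000024659, chromosome 19, 20373428 to 20390944, minus strand) encodes the glucocorticoid-induced annexin that signals through formyl peptide receptors. It was a low-count gene in liver, with 4.93 to 16.2 CPM on the high-fat diet (median 10.2) and 1.87 to 7.14 CPM on the control diet (median 4.20). Anxa1 exceeded the highest control library in 10 of the 12 high-fat libraries. Its log2 fold change was 1.43 (standard error 0.21, edgeR adjusted p = 1.43e-05). High-fat replicate 3 had 16.0 CPM and stood apart from the other Xist-high libraries of that diet, which lay at 8.63 CPM or less. This library also had the highest summed level of the neutrophil markers, 166 CPM against a high-fat median of 8.78, and without it the log2 fold change of Anxa1 was 1.36. The part of neutrophils in the Anxa1 values was not tested.

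Anxa3 (ENSMUSG00000029484, chromosome 5, 96793339 to 96845966, plus strand) encodes an annexin of neutrophil granules and epithelia. It was at 8.81 to 34.6 CPM on the high-fat diet (median 11.9) and at 2.06 to 9.74 CPM on the control diet (median 4.22), and 10 high-fat libraries exceeded every control. Its log2 fold change was 1.64 (standard error 0.24, edgeR adjusted p = 1.33e-05).
Anxa4 (ENSMUSG00000029994, chromosome 6, 86736840 to 86793584, minus strand), an annexin abundant in secretory and bile duct epithelia, moved least among the called members. It lay at 44.6 to 94.3 CPM on the high-fat diet (median 62.3) and at 29.1 to 57.0 CPM on the control diet (median 45.8). Although 10 of the 12 high-fat libraries were above every control, the log2 fold change of 0.55 (standard error 0.11, edgeR adjusted p = 0.000366) was close to the threshold of 0.5, and it fell to 0.51 when control replicate 10 was left out. With a fold threshold of 1 (log2) Anxa4 was no longer called.

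Anxa13 (ENSMUSG00000055114, chromosome 15, 58341471 to 58389244, minus strand), an annexin of intestinal and renal epithelium, had the fewest counts of the 9. There were 13 to 354 counts per high-fat library and 6 to 37 per control library. As a level this was 0.725 to 15.0 CPM (median 1.45) against 0.492 to 2.10 CPM (median 0.622), so that 5 of the 12 high-fat libraries exceeded the highest control and 7 lay within the range of the controls. On the log2 scale the rise of Anxa13 was 2.07 (standard error 0.44, edgeR adjusted p = 0.000621). High-fat replicate 9 carried the highest values of Anxa13, Anxa3, Anxa4 and Anxa5. Without this library the log2 fold changes were 1.56 for Anxa13, 1.47 for Anxa3, 0.51 for Anxa4 and 1.84 for Anxa5, all still called.

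Replicate 9 of the high-fat diet was also the library richest in cholangiocyte markers, with a summed level of 220 CPM. The other high-fat libraries had 20.5 to 67.6 CPM and the controls 17.3 to 39.3 CPM. Of the 7 cholangiocyte markers 5 were called higher on the high-fat diet and 0 lower, where 13.2% and 4.99% of all tested genes were. Among these markers 1 was at 0 in at least 1 library. Their part in the rise of Anxa13, Anxa3, Anxa4 and Anxa5 was not tested.

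The 3 members that were not called were Anxa6, Anxa7 and Anxa11. Anxa6 (ENSMUSG00000018340, chromosome 11, 54979108 to 55033445, minus strand), whose core arose by duplication and which acts in endosomal cholesterol traffic, was at 125 to 167 CPM on the high-fat diet (median 155) and at 105 to 167 CPM on the control diet (median 142). These ranges overlapped almost fully, and the log2 fold change was 0.11 (standard error 0.072, edgeR adjusted p = 0.232). Anxa7 (ENSMUSG00000021814, chromosome 14, 20455260 to 20480133, minus strand), a fusion-promoting annexin of secretory cells, was at 92.4 to 128 CPM (median 112) against 61.8 to 109 CPM (median 89.2). Anxa7 passed on its edgeR adjusted p of 0.00112 but not on its log2 fold change, 0.36 (standard error 0.082).
Anxa11 (ENSMUSG00000021866, chromosome 14, 25842156 to 25886804, plus strand), which tethers RNA granules to lysosomes, was at 43.6 to 58.5 CPM on the high-fat diet (median 49.2) and at 47.5 to 59.4 CPM on the control diet (median 52.4). No high-fat library was above the highest control, and no control was below the lowest high-fat library. In the other direction, high-fat replicates 7, 9, 10 and 12, at 43.6 to 45.2 CPM, lay below every control. Its log2 fold change was -0.085 (standard error 0.061, edgeR adjusted p = 0.277).

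To compare the members with each other, CPM was divided by the kilobases of exon that each gene has in GENCODE M21. On the control diet Anxa5 (54.3 ± 28.1 CPM per kb, SD, n = 12) and Anxa6 (47.8 ± 5.84) led the family and differed by less than their spread. Anxa7 (14.5 ± 2.20), Anxa11 (12.8 ± 0.874) and Anxa4 (9.79 ± 1.68) followed, of which Anxa7 and Anxa11 differed by less than the spread of Anxa7. Anxa2 was at only 4.07 ± 2.56 CPM per kb, and Anxa1 (1.39 ± 0.504), Anxa3 (1.29 ± 0.591) and Anxa13 (0.605 ± 0.342) closed the order, with Anxa1 and Anxa3 within their spread.

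On the high-fat diet Anxa5 stood alone at 203 ± 81.1 CPM per kb, and Anxa2 moved from the sixth to the third place at 31.9 ± 15.4. Anxa6 kept a level of 51.6 ± 4.43 CPM per kb. Anxa2 and Anxa7 (18.6 ± 1.94) differed by less than the spread of Anxa2, but this spread joins the Xist sets. In the Xist-high libraries Anxa2 was at 15.5 to 21.2 and Anxa7 at 15.4 to 19.9 CPM per kb. In the Xist-low libraries they were at 38.5 to 54.9 and at 17.7 to 21.3. Anxa4 (14.4 ± 3.02) and Anxa11 (12.1 ± 1.34) came next and lay within the spread of Anxa4. Anxa3 (4.03 ± 1.99), Anxa1 (3.72 ± 1.35) and Anxa13 (2.56 ± 2.97) remained lowest and did not differ beyond their spread.

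The summed level of the 9 members was 147 ± 34.0 CPM per kb on the control diet (110 to 230) and 342 ± 101 on the high-fat diet (230 to 484, SD, n = 12 each). The share of Anxa5 in this sum was 35.4 ± 8.14% on the control diet and 57.6 ± 6.60% on the high-fat diet, while that of Anxa2 was 2.62 ± 0.925% and 8.90 ± 2.12%. The share of Anxa6 was 33.7 ± 5.93% on the control diet and 16.5 ± 5.28% on the high-fat diet while the log2 fold change of its own level was 0.11. These shares depend on the length used, and with the longest annotated transcript of each gene Anxa5 held 27.8% on the control diet, below the 30.2% of Anxa6, and 47.8% on the high-fat diet.

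**Figure D2:**
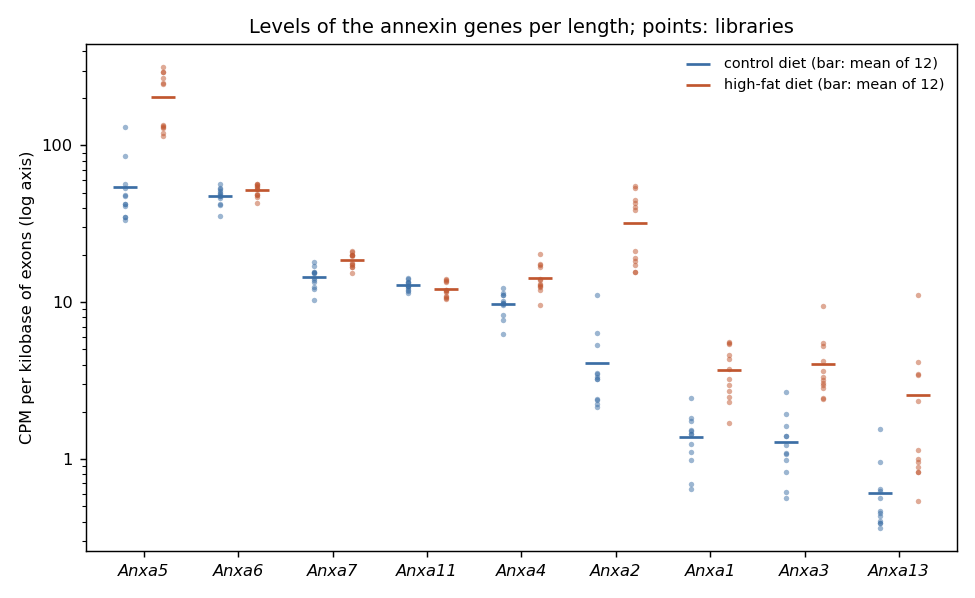
Level of each annexin gene as CPM per kilobase of annotated exon (log axis), with a point per library and a bar for the mean of 12 libraries of each diet. Anxa5 and Anxa6 are nearly level on the control diet (54.3 and 47.8), and on the high-fat diet Anxa5 reaches 203 while Anxa6 stays at 51.6.

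The diet effect was then examined within each Xist set. In the Xist-high set 2 members, Anxa2 and Anxa5, were called higher and 0 lower, where 2.90% of all tested genes were called higher and 0.882% lower. In the Xist-low set all 6 were called higher and 0 lower, where 14.4% and 7.99% of tested genes were. A difference between sets needs a test of its own, and the interaction of diet and set passed an edgeR adjusted p of 0.05 for 2 members, Anxa3 and Anxa4, and among all genes it passed with a positive sign for 6.18% and with a negative sign for 4.04%. Differences between sets are taken from this joint fit over all 24 libraries, so they need not equal the gap between the separate fits of the sets. The estimated interaction was above 0, that is with a larger diet effect in the Xist-low set, for 7 of the 9 members. The share of all tested genes with an estimate above 0 is not given here, so this count cannot be set against it.

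Anxa4 had the lowest p of the members for this difference. Its high-fat libraries lay at 44.6 to 60.5 CPM in the Xist-high set and at 64.2 to 94.3 CPM in the Xist-low set, which did not overlap. Its control libraries went the other way, with 45.7 to 57.0 CPM in the Xist-high set and 29.1 to 47.5 CPM in the Xist-low set. The log2 fold change was thus 0.16 (standard error 0.091) in the Xist-high set and 0.96 (standard error 0.13) in the Xist-low set, a difference of 0.80 (edgeR adjusted p = 0.00230).

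For Anxa3 the log2 fold changes were 0.90 (standard error 0.21) and 2.37 (standard error 0.31), and the difference in the joint fit was 1.45 (edgeR adjusted p = 0.0182), or 1.20 without high-fat replicate 9 (edgeR adjusted p = 0.0360). Its high-fat range was 8.81 to 13.3 CPM in the Xist-high set and 11.6 to 34.6 CPM in the Xist-low set.
In the high-fat livers Anxa2 and Anxa5 fell into separate ranges by set. Anxa2 was at 58.0 to 79.2 CPM in the Xist-high and at 144 to 205 CPM in the Xist-low libraries, and Anxa5 was at 205 to 241 CPM and at 438 to 561 CPM. The log2 fold changes of Anxa2 were 2.35 and 3.33, and their difference of 0.97 did not pass (edgeR adjusted p = 0.137). For Anxa5 they were 1.33 and 2.29, with a difference of 0.95 (edgeR adjusted p = 0.0860). These results turned on control replicate 11, an Xist-low library. Without it the differences of Anxa2 (1.47, edgeR adjusted p = 0.00195) and Anxa5 (1.38, edgeR adjusted p = 0.000376) passed, as did those of Anxa13 (2.32) and Anxa11 (-0.32), so that 6 members differed between the sets in place of 2. With limma-voom in place of edgeR, the difference of Anxa5 passed at an adjusted p of 0.0425, and with library totals those of Anxa2, Anxa5 and Anxa6 passed.

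Among the other members, Anxa1 had log2 fold changes of 1.12 in the Xist-high and 1.69 in the Xist-low set, and Anxa13 had 0.90 and 2.69. Neither difference passed the test (edgeR adjusted p = 0.404 and 0.124). Anxa7 was at 0.38 and 0.37. Anxa11 was at 0.066 in the Xist-high set and at -0.22 in the Xist-low set (difference -0.30, edgeR adjusted p = 0.0667), and with a stricter filter on low counts this difference passed at 0.0405. The myofibroblast markers moved along with the sets, since their summed level in high-fat livers was 219 to 365 CPM in the Xist-high and 403 to 667 CPM in the Xist-low libraries, and so did those of monocyte-derived macrophages, at 108 to 138 CPM and 179 to 259 CPM. In the same livers the hepatocyte markers summed to 71323 to 94364 CPM in the Xist-high and 39249 to 50032 CPM in the Xist-low libraries, and the cholangiocyte markers to 20.5 to 34.0 CPM and 32.7 to 220 CPM. Their part in the annexin differences was not tested.

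**Figure D3:**
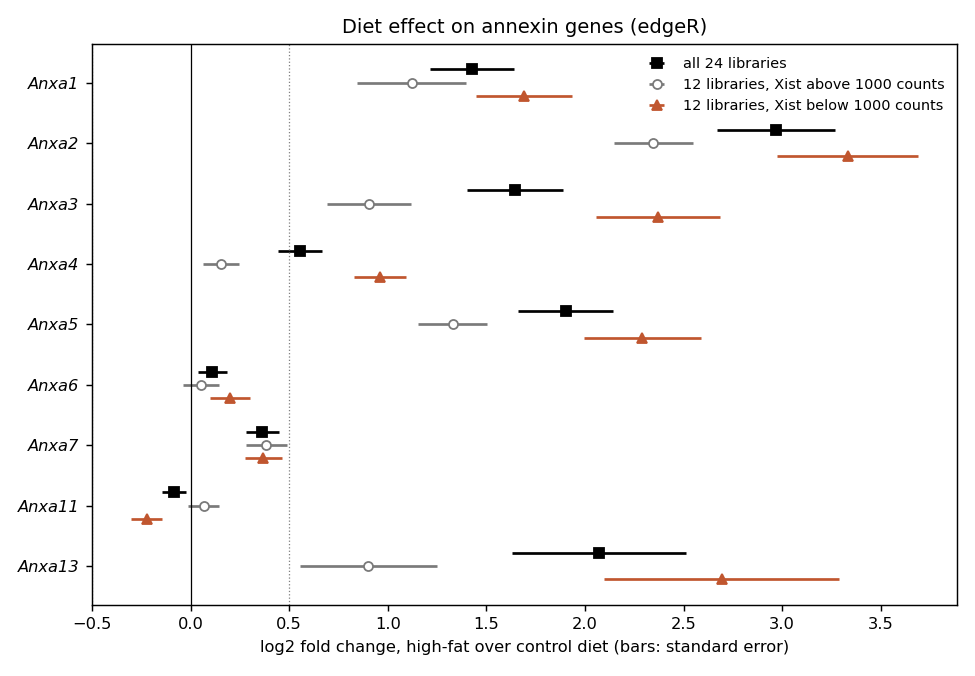
Log2 fold change of each annexin gene, high-fat over control diet, from edgeR, in all 24 libraries (squares) and within the Xist-high (circles) and Xist-low (triangles) sets, with bars for the standard error. Anxa4 lies at 0.16 in the Xist-high and at 0.96 in the Xist-low set, while Anxa7 is at 0.38 and 0.37.

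The markers of several cell types rose with the annexins, on a diet under which 13.2% of all tested genes were called higher and 4.99% lower. All 8 markers of monocyte-derived macrophages were called higher, with a summed level of 19.5 to 58.5 CPM on the control diet and 108 to 259 CPM on the high-fat diet. Of the 8 myofibroblast markers 6 were higher and 0 lower, from 46.3 to 235 CPM to 219 to 667 CPM, and of 5 tested neutrophil markers 4 were higher, from 1.84 to 7.15 CPM to 6.28 to 166 CPM. Among the 6 listed neutrophil markers 4 were at 0 in at least 1 library, as were 2 of the myofibroblast markers. The value of 166 CPM was that of high-fat replicate 3, and the high-fat median was 8.78 CPM. Of the 8 hepatocyte markers 0 were higher and 6 lower. No T cell or B cell marker was called, 2 of 6 resident macrophage markers, 2 of 5 quiescent stellate cell markers and 2 of 5 mesothelial markers were higher, and 1 of 7 sinusoidal endothelial markers was higher. No marker of these lists was at 0 in all libraries. The part of these cells in the annexin levels was not tested.

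The annexins were also compared with each other from library to library, as log2(CPM + 1) after the mean of each diet and set was subtracted. Across the 36 pairs Pearson's r ran from -0.438 (Anxa1 and Anxa11) to 0.869 (Anxa2 and Anxa5), with a median of 0.3115, and 8 pairs exceeded 0.5. For Anxa2 and Anxa5, the permutation p of r was 0.00147, or 0.0343 after adjustment over 72 relations. Spearman's rho of this pair was lower at 0.521, with a permutation p of 0.0311 that became 0.132 on adjustment. Leaving out the 2 libraries farthest from the median of the first-named gene, here Anxa2, gave r = 0.611. This rule looked at the first-named gene of each pair only, so libraries extreme in the second gene could stay in. Anxa2 and Anxa7 reached r = 0.642, with a permutation p of 0.00225 (0.0343 adjusted), and a rho of 0.592, with a permutation p of 0.0069 (0.0535 adjusted). Anxa5 and Anxa7 reached r = 0.636, with a permutation p of 0.00238 (0.0343 adjusted), and a rho of 0.51, with a permutation p of 0.0259 (0.116 adjusted). With the 2 farthest libraries dropped these pairs were at r = 0.517 and 0.531. For Anxa3 and Anxa5 r was 0.601, with a permutation p of 0.00204 (0.0343 adjusted), rho was 0.516, with a permutation p of 0.023 (0.11 adjusted), and r was 0.543 without the 2 farthest. For Anxa5 and Anxa13 r was 0.413, with a permutation p of 0.00226 (0.0343 adjusted), rho was 0.47, with a permutation p of 0.0167 (0.0857 adjusted), and r was 0.261 without the 2 farthest. Anxa4 and Anxa13 reached r = 0.62, with a permutation p of 0.00349 (0.0419 adjusted). Their rho of 0.553 came with a permutation p of 0.00835 (0.0547 adjusted). When the 2 libraries farthest in Anxa4 were dropped, r rose to 0.746, which is no check on libraries extreme in Anxa13. Anxa1 and Anxa2 reached r = 0.583, with a permutation p of 0.00566 (0.0509 adjusted), and rho = 0.596, with a permutation p of 0.00415 (0.0427 adjusted). Here r stayed at 0.587 when the 2 farthest were dropped. All values share the depth and cell makeup of each library. The r values over all pairs of tested genes are not given here, so the count of 8 pairs cannot be set against them.

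The genes whose residuals followed each member most closely over the 24 libraries, among 13767 candidates, are given as a description without a test. They were S100a11, Sirpa and Krt8 for Anxa2 (r = 0.87, 0.84 and 0.84), and Col3a1, Uap1l1 and H2-DMb1 for Anxa5 (r = 0.88, 0.88 and 0.86). For Anxa1 they were Dynll1, Arhgdib and Pf4 (r = 0.81, 0.80 and 0.80), and for Anxa3 Glipr1, Pdlim4 and Arl4c (r = 0.89, 0.86 and 0.85). Anxa4 was followed by Unc5b, Arhgef16 and Tnip1 (r = 0.86, 0.84 and 0.84). Anxa13 had the closest followers, ccdc198, Tspan8 and Vsig10, at r = 0.93 each and rho from 0.75 to 0.77. Anxa6 was followed by Myh14, Gsta2 and Tmem175 (r = 0.86, 0.83 and 0.81), Anxa7 by Lgals1, Aktip and Hsd17b13 (r = 0.90, 0.88 and 0.86), and Anxa11 by C030006K11Rik, Atad3a and Kcnn1 (r = 0.87, 0.78 and 0.78).

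The proteins that annexins dock or signal through were then examined as a list of 12 partners and receptors. Of these 6 were called higher and 1 lower, where 13.2% and 4.99% of all tested genes were. The median log2 fold change of the 12 was 1.12, beside -0.032 for all genes. Within the Xist-high set 2 of them were called higher and 1 lower, where 2.90% and 0.882% of all tested genes were. S100a11, an S100 protein that binds Anxa1 and Anxa2, was at 12.7 to 79.3 CPM on the high-fat diet (median 38.6) and at 3.39 to 19.7 CPM on the control diet (median 5.51). Its log2 fold change was 2.65 (standard error 0.37, edgeR adjusted p = 6.82e-06). S100a6 (2.05) and S100a4 (2.02) rose as well, though from levels under 4 CPM in every control library. Ahnak, a giant scaffold protein that binds the Anxa2 complex, had a log2 fold change of 0.97, and Pla2g4a, the cytosolic phospholipase A2 that Anxa1 is known to inhibit, had 1.37.

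S100a10, the light chain of the Anxa2 complex, was not called. It was at 98.5 to 181 CPM on the high-fat diet (median 119) and at 30.8 to 221 CPM on the control diet (median 65.2), no high-fat library exceeded the highest control, and 9 of the 12 control libraries lay below every high-fat library. Its log2 fold change was 0.66 (standard error 0.24) with an edgeR adjusted p of 0.0298, above the threshold. Of the proteins that this complex brings together, Plat rose and Plg fell. Plat, tissue plasminogen activator, was at 1.44 to 19.6 CPM (median 4.02) against 0.0983 to 2.44 CPM (median 0.542), a log2 fold change of 3.17 (standard error 0.46, edgeR adjusted p = 9.56e-06), and 10 high-fat libraries were above every control. Plg, the plasminogen made by hepatocytes, fell by 0.68 on the log2 scale, from a median of 2695 CPM to 1551 CPM, a call that was lost when library totals alone were used for scaling.
Of the formyl peptide receptors, Fpr1 (0.83, edgeR adjusted p = 0.0571) and Fpr2 (1.27, edgeR adjusted p = 0.0181) were not called. Neither were Pdcd6 (-0.39, edgeR adjusted p = 0.0332), a calcium sensor that docks on Anxa7 and Anxa11, nor sorcin (Sri, 0.090), a partner of Anxa7.

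Membrane repair, the process for which annexins are recruited to torn plasma membrane, was followed with 12 further genes. Of these 6 were called higher and 0 lower, where 13.2% and 4.99% of all tested genes were. The median log2 fold change of the 12 was 0.47. Within the Xist-high set 3 of them were higher, where 2.90% of all tested genes were. Myof, the ferlin myoferlin, rose most and was the one gene of this list whose groups did not overlap, at 7.83 to 30.4 CPM against 1.22 to 7.14 CPM (log2 fold change 2.12, standard error 0.25, edgeR adjusted p = 1.12e-06). Of all tested genes 1.48% separated in this direction. Ehd2 (1.30) and Cavin1 (1.05), which act at caveolae, and Dysf (0.65), the ferlin dysferlin, rose as well. So did Capn1 (0.65) and Capns1 (0.58), subunits of the calpain that cuts repair proteins at injury sites. Capn2 (0.37), the ESCRT genes Chmp4b (0.29), Vps4b (-0.021) and Pdcd6ip (-0.029), Ehd1 (0.17) and Cav1 (0.11) were not called.

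**Figure D4:**
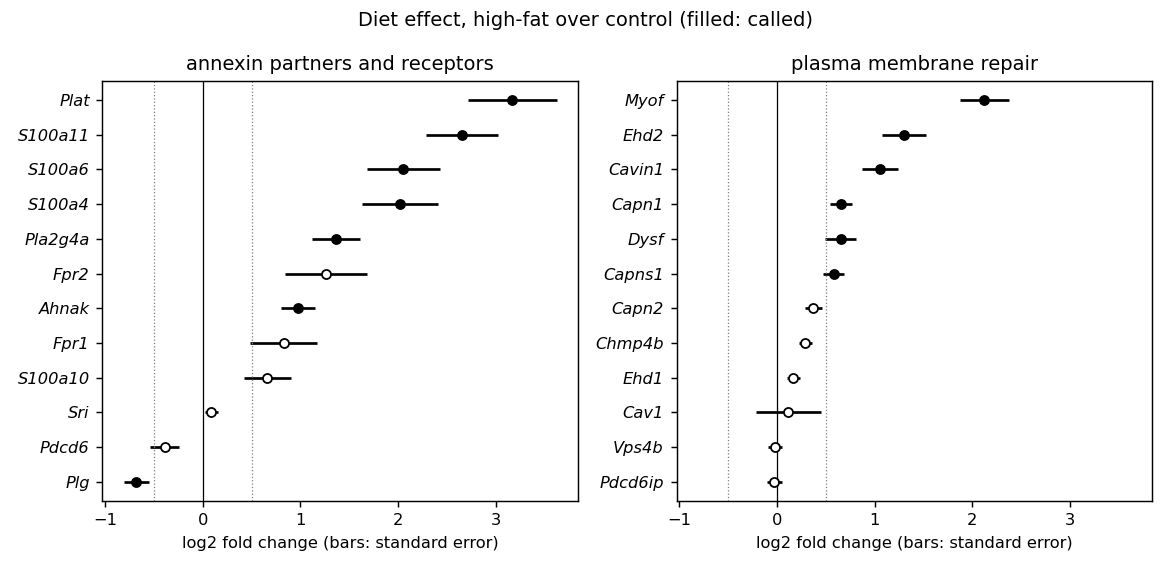
Log2 fold change, high-fat over control diet (edgeR, bars for the standard error), of 12 annexin partners and receptors on the left and 12 membrane repair genes on the right, filled where called. Plat (3.17) and S100a11 (2.65) lead the partners and Plg (-0.68) is lowest, and Myof (2.12) leads the repair genes.

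The table also held the annexins Anxa8, Anxa9 and Anxa10, which are outside the 9. Anxa9 was called higher, from 0.875 to 1.58 CPM on the control diet (median 0.998) to 1.12 to 8.71 CPM on the high-fat diet (median 2.56), and its log2 fold change was 1.44 (standard error 0.28, edgeR adjusted p = 0.000262). Anxa8 had 0 to 28 counts per library and a log2 fold change of -0.42 (edgeR adjusted p = 0.513). Anxa10 had at most 3 counts in a library and was not tested. The exons of Anxa2, Anxa3, Anxa4 and Anxa11 overlap those of Gm16144, Gm42603, Gm44036 and Anxa11os in GENCODE M21, and these genes had at most 2 counts in any library. In that annotation Anxa13 is drawn as a processed transcript and the other 8 as protein-coding genes.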

How the data were processed

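RNA was extracted from whole liver and poly(A)-selected. The authors deposited 1 table of raw counts per Ensembl gene for all 24 libraries, without normalization. The submitters' processing notes name bcl2fastq, STAR 2.7.3a and mm10. For RNA-Seq the study's methods name a strand-marking library kit, the exon quantification pipeline and PISCES, with a human reference, and do not say whether the mouse table was made this way. Its counting program, annotation and strand setting are therefore unsure, and reads shared by overlapping genes cannot be told apart. Symbols and positions came from GENCODE M21, which matched 51745 of 56205 gene IDs.

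Genes detected, with 1 count or more, in 12 or more libraries were fitted with edgeR 4.0.16 (R 4.3.3, TMM, quasi-likelihood, diet as the only term, two-sided), with Benjamini-Hochberg adjustment over all 17913. Standard errors came from the log2 fold change and the F statistic. The test was tried on simulated data first, with known changes set in 200 genes. It recovered 73% of these changes, 63% of those of 1 (log2) and 83% of those of 2, and called 2 unchanged genes. The libraries of a diet are as many as its mice, but the labels tie no library to a mouse, so p-values measure the spread between these libraries. No pair of libraries was alike within sampling noise (lowest chi-square per degree of freedom 10.1). Correlations used 100000 permutations within each diet and set.

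The genes to be named were all 9 annexins, the listed partners, repair genes and cell markers, and the 3 closest followers of each member. Members and lists were chosen with earlier results of these data known. Alternatives were limma-voom (limma 3.58.1), DESeq2 1.42.0, other scalings, filters and thresholds, sva 3.50.0, the replicate number as a block, the Xist set as a covariate or as a split, and each library left out.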

Additional observations from a re-analysis of the deposited data

Results flagged for a closer look

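The diet effect differed between the sets of libraries with high and low Xist counts for Anxa3, by 1.45 on the log2 scale (standard error 0.39, edgeR adjusted p = 0.0182), and for Anxa4, by 0.80 (standard error 0.16, edgeR adjusted p = 0.00230), as a test of the interaction in 24 libraries. In both genes the larger rise was in the 12 libraries where Xist was low. Both differences also passed with library totals (1.84 and 1.14), with another filter on low counts (1.45 and 0.79) and with limma-voom (1.40 and 0.80). With each of the 24 libraries left out in turn, an alternative chosen after seeing the data, both passed in all 24 fits, at 1.20 to 1.66 for Anxa3 and 0.72 to 0.86 for Anxa4. The labels do not say what sets these libraries apart. With 12 libraries per diet, no rule was used to screen single libraries for outlying values. Some libraries with extreme values are named above, and the fits without each library are given.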

How the results depend on the processing

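Anxa4 (0.55) lost its call at a fold threshold of 1 (log2), which changed the threshold and not the fit. Anxa13 dropped out of the tested genes when each library had to hold 10 counts. Otherwise the 6 called annexins kept their direction and their call in the 36 alternative fits to both Xist sets together. Their log2 fold changes ran over these fits from 1.36 to 1.74 for Anxa1, from 2.83 to 3.35 for Anxa2, from 1.47 to 1.97 for Anxa3, from 0.51 to 0.85 for Anxa4, from 1.77 to 2.22 for Anxa5 and from 1.56 to 2.45 for Anxa13. The upper values of Anxa2 and Anxa5 came from leaving out control replicates 6 and 11, an alternative chosen after seeing the data. With 1 library left out at a time, 6 annexins were higher and 0 lower in all 24 fits, 6 to 7 partners higher and 1 lower, 6 repair genes higher, and 2188 to 2468 of all genes higher and 700 to 995 lower. The annexins whose effect differed between the sets numbered 2 to 6, with 6 when control replicate 11 was left out.

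Library totals in place of TMM gave 3827 higher and 226 lower genes and 0 lower partners, brought Anxa7 past the threshold at 0.67, turned Anxa11 to 0.20 and raised the annexins whose effect differed between sets to 5. Requiring 10 counts per library, which left 11322 genes tested, gave 1226 higher genes and 2 higher partners. Within the Xist-high set, 2 annexins, 2 partners, 3 repair genes and 520 genes in all were higher and 158 genes lower, and Anxa11 was at 0.066. There Anxa1 (1.12), Anxa3 (0.90) and Anxa13 (0.90) missed on the edgeR adjusted p alone (0.0150, 0.0116 and 0.0985) and Anxa4 (0.16) on both thresholds (0.283). The Xist-low set gave 1431 lower genes. These fits have fewer libraries. Without a fold threshold and at an adjusted p of 0.05, 3709 genes were higher and 3388 lower, with 2 lower partners. Raising the fold threshold to 1 (log2) gave 216 lower genes, 5 higher annexins, 5 higher and 0 lower partners and 3 higher repair genes. The share of Anxa5 on the high-fat diet was 47.8% with the longest transcript as length.

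The replicate numbers recur in both diets. Deviations of same-numbered libraries correlated from -0.0935 to 0.541, and 2 of the 12 high-fat libraries correlated best with their own number, which gave no ground for pairing by number. Under the replicate block 6 annexins and 7 partners were higher, and 2063 genes were higher and 844 lower. Anxa13 was then at 1.58 and Anxa4 at 0.54.

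Depth limits Anxa13, with 6 to 37 counts in a control library, most.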
